A study of Homo sapiens with 11 samples.

Results

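The miR-28, miR-151a and miR-708 hairpins form a family of related intronic miRNAs, and both mature arms of each hairpin were followed: hsa-miR-28-5p, hsa-miR-28-3p, hsa-miR-151a-5p, hsa-miR-151a-3p, hsa-miR-708-5p and hsa-miR-708-3p. The 6 members were chosen by name from the 2588 mature miRNAs in the small RNA-seq tables, and all 6 were found, each listed for a single genomic copy. They were followed in 6 parental tumor-derived cell lines without siRNA treatment: A549 (lung cancer), ES2 (ovarian cancer), MV3 (melanoma), PANC1 (pancreas cancer), BE(2)C (neuroblastoma) and HepG2 (liver cancer). PANC1 was represented by 1 library and each other line by 2 biological replicates, which gives 11 libraries. Libraries of A549, ES2, MV3 and PANC1 were made with a NEXTflex small RNA kit from 50 ng of total RNA, whereas those of BE(2)C and HepG2 were prepared by the company Novogene. Cells were harvested 48 h after seeding, except that the labels of BE(2)C give both 24 h and 48 h. The kit, the sequencer and the read length changed together, so that in any difference between the 4 NEXTflex and the 2 Novogene lines the line and its preparation cannot be told apart. Each line is a long-term culture of established tumor cells and stands for itself, not for its tissue.

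MiRNAs are cut from a hairpin whose arms give the 5p and the 3p strand, and an Argonaute protein keeps one strand of the duplex as the guide. The guide finds mRNAs mainly by pairing of its seed, the bases next to its 5′ end, so that the arms of a hairpin address different mRNAs and miRNAs with the same seed can address the same ones. Hairpins in introns are transcribed together with their host gene. In the human annotation (GRCh38, GENCODE v44), MIR28 (ENSG00000207651.1, chromosome 3, 188688781 to 188688866, plus strand) lies in LPP, which encodes a LIM domain protein of focal adhesions. MIR708 (ENSG00000211997.1, chromosome 11, 79402022 to 79402109, minus strand) lies in TENM4, which encodes a teneurin, a transmembrane protein of the developing nervous system. The host of MIR151A is PTK2, the gene of focal adhesion kinase. Each hairpin was on the strand of its host and was intronic in every host transcript that spans it, 8 for LPP, 17 for PTK2 and 3 for TENM4. Host mRNA was not measured in these libraries.

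Mature sequences were taken from RefSeq (GRCh38.p14), whose table held 3 of the 6 members. They are shown with the seed (bases 2 to 8) in capitals because the seed sets the group of possible targets, and hsa-miR-3139 is added as the other miRNA of the table with the seed of hsa-miR-708-5p.
hsa-miR-28-3p: cACUAGAUugugagcuccugga
hsa-miR-708-3p: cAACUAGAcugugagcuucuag
hsa-miR-708-5p: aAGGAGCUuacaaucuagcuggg
hsa-miR-3139: uAGGAGCUcaacagaugccuguu
The mature miR-28-3p lies at chr3:188688834-188688855 (plus strand), miR-708-3p at chr11:79402032-79402053 (minus strand), miR-708-5p at chr11:79402077-79402099 (minus strand) and miR-3139 at chr4:143343469-143343491 (plus strand). The 3p arms of miR-28 and miR-708 were closely related: with miR-708-3p moved by 1 base, 17 of 21 aligned bases were identical, and the longest shared run was UGUGAGCU, 8 bases from base 9 of miR-28-3p and base 10 of miR-708-3p. Because of that shift their seeds are not the same word, and in the RefSeq table neither seed was shared with another miRNA. The members hsa-miR-28-5p, hsa-miR-151a-5p and hsa-miR-151a-3p are given by name, and their seeds were not compared with those shown.

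Reads assigned to miRNAs ranged from 1173902 to 12137452 per library with a median of 2670030, and levels are given as CPM, the reads of a miRNA relative to all miRNA reads of its library, on a scale that sums to the same total in each library. Where 0 reads were found, up to 3 cannot be told from none, a limit of 2.56 CPM for the smallest library and of 0.247 CPM for the largest. Neuronal miR-9-5p was highest in BE(2)C (16715 CPM) and liver-enriched miR-192-5p highest in HepG2 (15859 CPM), whereas the hepatocyte miRNA miR-122-5p reached 57.0 CPM in HepG2 and 415 CPM in BE(2)C, there with 823 CPM in replicate 1 and 5.96 CPM in replicate 2. In MV3 the melanocyte miRNA miR-211-5p had 0 reads, and miR-204-5p at most 1.70 CPM. The epithelial miR-200c-3p had line means between 21.8 and 79.6 CPM and miR-141-3p at or below 4.50 CPM in all 6 lines. The BE(2)C replicates stood apart from each other more than those of any other line. Their chi-square per degree of freedom was 849, against 8.53 to 59.2 in the other 4 replicated lines. Levels and arm ratios of the members in BE(2)C are therefore given per library. For most other miRNAs named, only the line mean of BE(2)C is given, which does not show this spread. Scaling matters for levels: TMM factors (trimmed mean of M-values, which adjust for a few dominating miRNAs) were 0.166 and 0.217 in HepG2 and 1.02 to 1.87 elsewhere, and they moved the median difference of all tested miRNAs between lines by between -2.48 (BE(2)C minus HepG2) and 0.50 (A549 minus MV3) on the log2 scale. Ratios between arms of a hairpin are free of this scaling.

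The members of miR-28 and miR-151a were detected in every line but not in the same order: miR-28-5p, miR-28-3p and miR-151a-5p were lowest in a Novogene line, whereas miR-151a-3p was highest in both Novogene lines. MiR-708 was read in number only in ES2 and BE(2)C. All 6 members differed across the 6 lines (limma F test on log2(CPM + 1), adjusted p between 6.64e-08 and 6.63e-05), against 99.3% of the 546 miRNAs tested, so that a difference across lines was not particular to the members. Within the 4 NEXTflex lines all 6 differed as well (adjusted p between 9.23e-05 and 0.000812), against 85.4% of 453. Tested miRNAs averaged at least 10 CPM in any line of the fit. Both miR-708 arms passed this filter through ES2 alone among the NEXTflex lines (69.0 and 33.2 CPM), and through ES2 and BE(2)C over the 6 lines. A difference of the miR-708 arms was thus largely built into the filter.

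**Figure D1:**
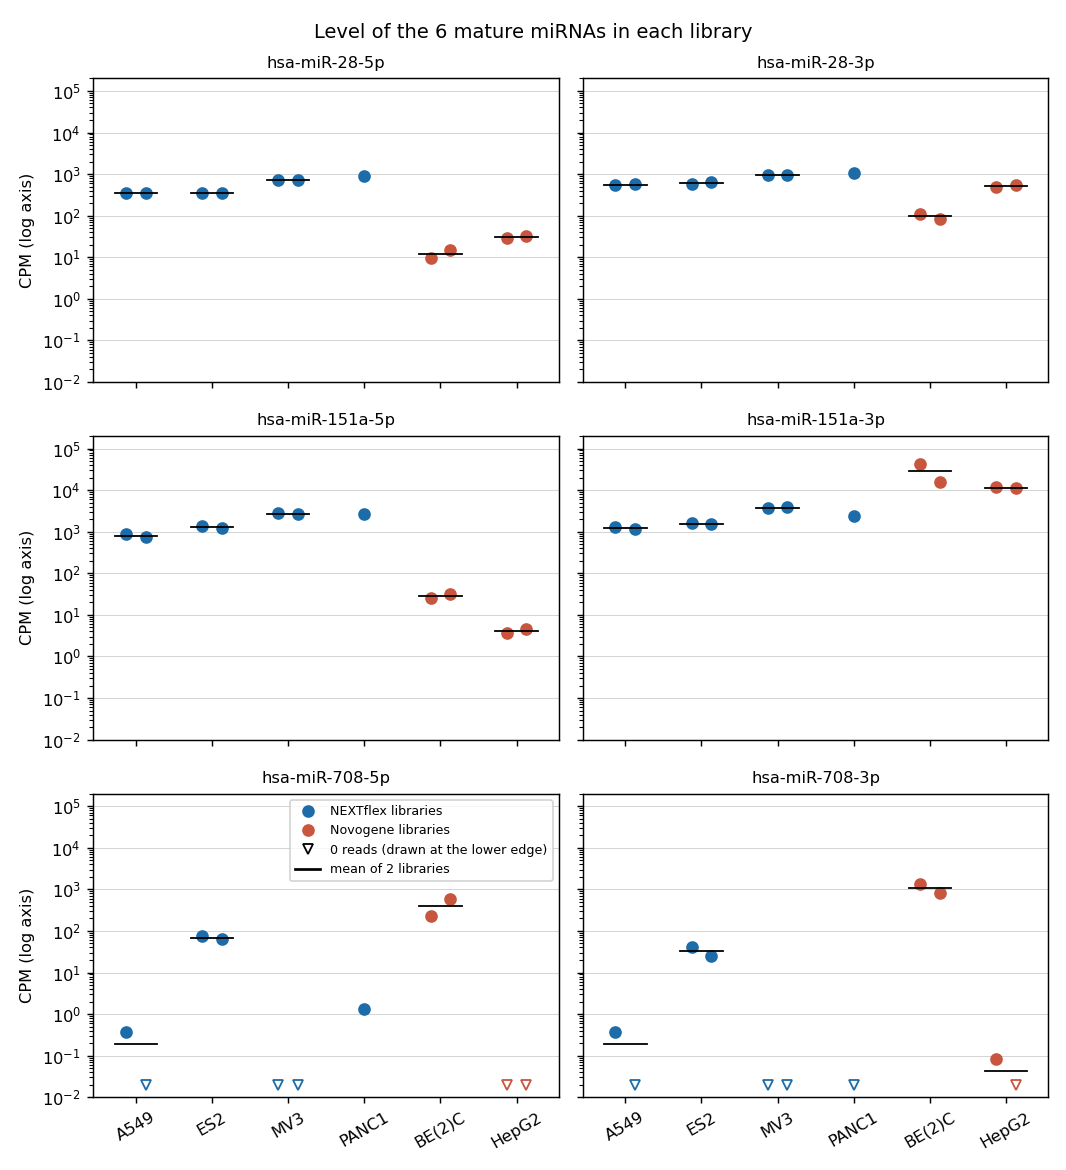
Level in CPM (log axis) of the 6 mature miRNAs in each of the 11 libraries; circles are libraries, open triangles libraries with 0 reads, and horizontal lines means of 2 libraries. MiR-151a-3p lies at 11165 CPM or above in the 4 Novogene libraries while miR-151a-5p lies at 32.4 CPM or below there, and miR-708 is read in number in ES2 and BE(2)C.

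MiR-28 was a moderately abundant hairpin in all NEXTflex lines. MiR-28-5p reached 349 and 344 CPM in the A549 replicates, 359.6 and 343 CPM in ES2, 740.3 and 702 CPM in MV3 and 891 CPM in PANC1. It fell to 9.71 and 14.7 CPM in BE(2)C, with 73 and 96 reads behind these values, and to 29.5 and 32.8 CPM in HepG2. On plain CPM the lowest NEXTflex library (343 CPM) was above the highest Novogene library (32.8 CPM), and among neighbours in the order of levels only ES2 and A549 overlapped. The distance to HepG2 depends on the scaling: with TMM factors the HepG2 libraries lay at 178 and 151 CPM and the lowest NEXTflex library at 259 CPM, and the log2 difference of A549 minus HepG2 went from 3.43 to 0.99 and that of ES2 minus HepG2 from 3.46 to 0.70. Mean levels were 346 ± 3.61 CPM in A549 (SD, n = 2), 351 ± 11.5 CPM in ES2 (SD, n = 2), 721 ± 27.3 CPM in MV3 (SD, n = 2), 12.2 ± 3.52 CPM in BE(2)C (SD, n = 2) and 31.2 ± 2.297 CPM in HepG2 (SD, n = 2). MV3 exceeded A549 by 2.08-fold and ES2 by 2.05-fold, with log2 differences of A549 minus MV3 of -1.06 (SE 0.21, limma adjusted p = 0.00378) and ES2 minus MV3 of -1.03 (SE 0.21, limma adjusted p = 0.00742). With TMM factors these were -0.26 and -0.55 and no longer passed the test.

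MiR-28-3p, the arm read more often, varied less over the 6 lines on plain CPM. Its highest line mean was 10.6 times its lowest, against 73.1 times for miR-28-5p. Between BE(2)C and HepG2, however, the 3p arm differed more, 5.37-fold against 2.56-fold. MiR-28-3p gave 554 and 563 CPM in A549, 586 and 646 CPM in ES2, 936 and 926 CPM in MV3 and 1041 CPM in PANC1. The BE(2)C replicates had 111 and 85.3 CPM and those of HepG2 498 and 558 CPM. On plain CPM only BE(2)C was thus far from the other lines, 5.69-fold below A549 and 5.37-fold below HepG2 by mean CPM, and the libraries of A549 and HepG2 overlapped. The log2 difference of A549 minus HepG2 was 0.084 (95% interval -0.31 to 0.48, limma adjusted p = 0.705), and with TMM factors it was -2.40, that is, HepG2 was then the higher line. The same reversal held for ES2 minus HepG2 (0.22 on CPM, -2.57 with TMM factors) and MV3 minus HepG2 (0.82, limma adjusted p = 0.00273 on CPM, and -2.46 with TMM factors), so that the place of HepG2 in the order of miR-28-3p depends on the scaling. BE(2)C was lowest on both scales, with a mean of 98.2 CPM plain and 64.8 CPM with TMM factors.

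MIR151A (ENSG00000254324.3, GRCh38, chromosome 8, 140732564 to 140732653, minus strand) gave the most reads of the 3 hairpins. Its 5p arm, miR-151a-5p, was higher than miR-28-5p in each NEXTflex library. It was read at 875 and 746 CPM in A549, 1359 and 1261 CPM in ES2, 2799 and 2687 CPM in MV3 and 2672 CPM in PANC1. In BE(2)C it gave 24.9 and 32.4 CPM from 187 and 212 reads, and in HepG2 3.70 and 4.53 CPM from 44 and 55 reads. No libraries of neighbouring lines overlapped, although PANC1 lay close below the lower MV3 library. The mean in MV3 was 666 times that in HepG2 on plain CPM and 68.8 times with TMM factors (log2 9.07 and 6.04), and BE(2)C was then the lowest line (18.6 CPM against 21.6 CPM in HepG2). MV3 was 3.38 times A549 (log2 A549 minus MV3 -1.76, SE 0.19, limma adjusted p = 0.00016), a log2 difference that was -0.96 with TMM factors. MV3 also exceeded ES2 by 2.09-fold (log2 -1.07, SE 0.19, limma adjusted p = 0.00397), a call that was lost with TMM factors (-0.58). The difference between BE(2)C and HepG2 was 2.53 on the log2 scale (SE 0.19, limma adjusted p = 5.74e-06) but -0.21 with TMM factors, so that its direction rests on plain CPM.

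MiR-151a-3p had its highest levels in the lines where miR-151a-5p had its lowest. It gave 1276 and 1159 CPM in A549, 1614 and 1519 CPM in ES2, 3648 and 3955 CPM in MV3 and 2351 CPM in PANC1. In BE(2)C it reached 41479 and 15542 CPM, from 311957 and 101647 reads, and in HepG2 11622 and 11165 CPM. It ranked 4 among all miRNAs in both HepG2 libraries, and 7 and 18 in BE(2)C, against ranks between 34 and 48 in the 7 NEXTflex libraries. All 4 Novogene libraries were above all NEXTflex libraries, and neighbouring lines did not overlap, but the BE(2)C replicates differed by 2.67-fold. The mean of BE(2)C was 23.4 times and that of HepG2 9.36 times the mean of A549 (log2 A549 minus BE(2)C -4.38, SE 0.39, and A549 minus HepG2 -3.23, SE 0.39, limma adjusted p = 2.26e-05 and 0.000146). With TMM factors these log2 differences were -3.85 and -5.71, so that the order of BE(2)C and HepG2 turned, and the first lay between -5.09 and -3.67 with libraries left out in turn. Between the Novogene lines the log2 difference of BE(2)C minus HepG2 was 1.16 (95% interval 0.25 to 2.06, limma adjusted p = 0.024). This call was lost when either HepG2 library was left out (log2 1.19 and 1.13). The difference was 0.45 without BE(2)C replicate 1 and 1.86 without replicate 2, and with TMM factors HepG2 was the higher line (-1.85).

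MiR-708 was close to on or off. In ES2, miR-708-5p gave 75.8 and 62.3 CPM from 126 and 143 reads and miR-708-3p 42.1 and 24.4 CPM from 70 and 56 reads. In BE(2)C, miR-708-5p gave 225 and 593 CPM and miR-708-3p 1349 and 802 CPM. The arms moved in opposite directions between the BE(2)C replicates, so that replicate 1 had more of the 3p and replicate 2 more of the 5p strand. Elsewhere, both arms had 1 read in A549 replicate 1 and 0 in replicate 2, and 0 reads in MV3. PANC1 had 13 reads of miR-708-5p (1.33 CPM, 95% Wilson interval 0.779 to 2.28) and 0 of miR-708-3p, and HepG2 had 0 reads of miR-708-5p and 1 of miR-708-3p in both libraries together. Levels in A549, MV3 and HepG2 could thus not be told from 0 at this depth and gave no order among these lines.

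Against the limit of 3 reads over the libraries of a line, and taking the lower of the 2 BE(2)C libraries, miR-708-5p was at least 204-fold higher than in MV3 and at least 1802-fold higher than in HepG2, the latter at least 239-fold with TMM factors. MiR-708-3p in the lower BE(2)C library was at least 728-fold higher than in MV3 and at least 2607-fold higher than in PANC1. In the lower ES2 library, miR-708-5p was at least 56.6-fold and miR-708-3p at least 22.1-fold higher than in MV3, lines that share the NEXTflex preparation. BE(2)C exceeded ES2 by 5.93-fold in mean CPM of miR-708-5p and by 32.4-fold in that of miR-708-3p (log2 ES2 minus BE(2)C -2.39, SE 0.47, and -4.98, SE 0.40, limma adjusted p = 0.00182 and 9.99e-06), and no library of ES2 reached one of BE(2)C. For miR-708-5p the difference was -3.09 without BE(2)C replicate 1 and -1.70 without replicate 2, and the call was lost with quantile normalization (-0.78).

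The 6 members together held 0.281% to 0.827% of the miRNA reads in the NEXTflex libraries, 4.32% and 1.71% in BE(2)C and 1.22% and 1.18% in HepG2. MiR-151a was the leading hairpin in every library, with 67.8% to 80.3% of the reads of the 6 members in the NEXTflex and 91.2% to 96.1% in the Novogene libraries. Ratios within a library, which no scaling changes, separated the arms further. MiR-151a-3p to miR-28-3p was 2.06 to 4.27 in the 7 NEXTflex libraries, 373 and 182 in BE(2)C and 23.3 and 20.02 in HepG2. MiR-151a-5p to miR-28-5p was 2.17 to 3.83 in the NEXTflex libraries and 2.56 and 2.21 in BE(2)C, inside that range, but 0.125 and 0.138 in HepG2. Only in HepG2 was miR-28-5p read more often than miR-151a-5p.

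**Figure D2:**
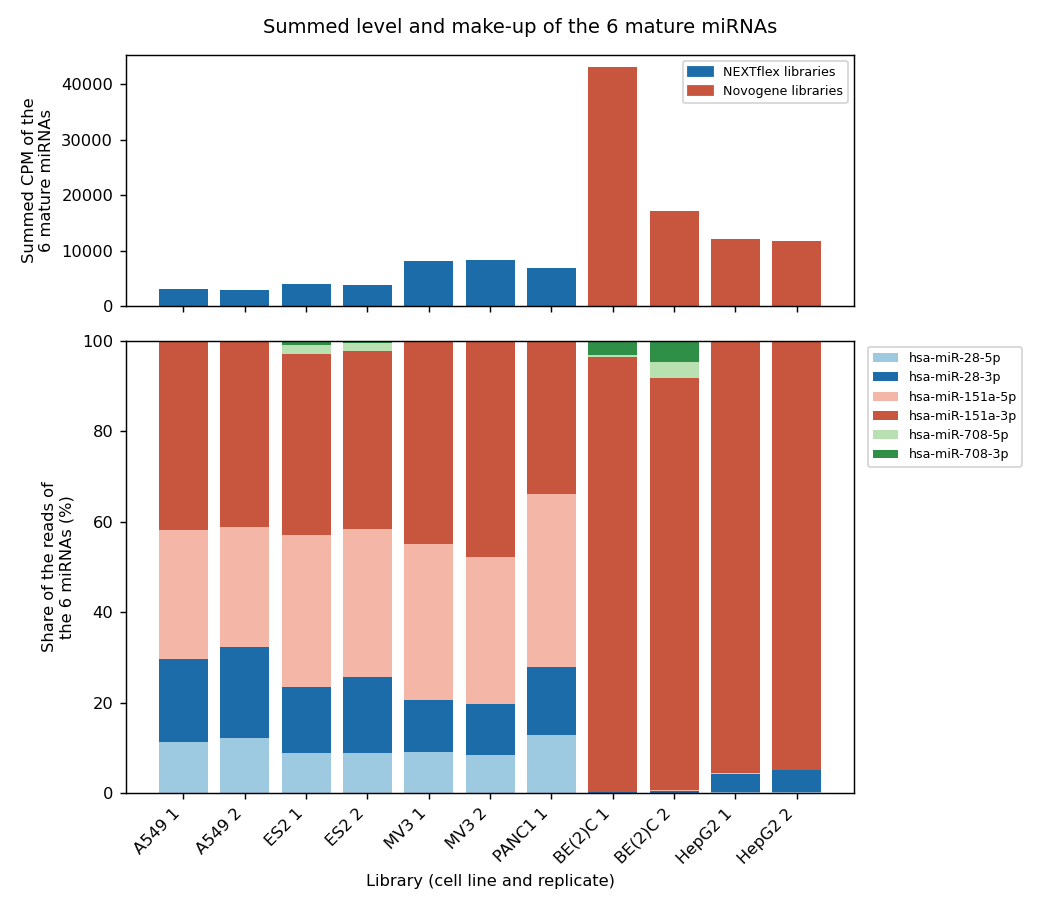
Upper bars give the summed CPM of the 6 mature miRNAs in each library and lower stacked bars the share of each member in that sum (percent, bars start at 0). The 3p arm of miR-151a holds 33.8% to 47.8% of the sum in the NEXTflex and 91.1% to 96.0% in the Novogene libraries.

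Within the NEXTflex preparation, 3 of 6 members were higher in ES2 than in A549 (miR-151a-5p and both miR-708 arms), where 26.9% of all tested miRNAs were higher in ES2. The call of miR-151a-5p (log2 -0.70) was lost without A549 replicate 2 (-0.58) or ES2 replicate 1 (-0.64) and with TMM factors (-0.38). The other 3 had log2 differences of A549 minus ES2 of -0.02, -0.14 and -0.36 with limma adjusted p of 0.969, 0.522 and 0.462, and the 2 miR-28 arms among them turned positive with TMM factors (0.29 for 5p and 0.18 for 3p). MV3 exceeded A549 in 4 of 6 members, all arms of miR-28 and miR-151a, against 37.4% of all tested miRNAs. The median log2 difference of the 6 members was -0.90 against -0.47 over all miRNAs, and with TMM factors, which bring the latter to 0.025, 1 member (miR-151a-5p) was still called. Shares of all miRNAs in this paragraph are those on plain CPM. No share over all miRNAs stands beside its calls with TMM factors. MV3 exceeded ES2 in the same 4 members (23.8% of all miRNAs), and ES2 exceeded MV3 in both miR-708 arms (8.97%). The miR-708 arms passed the filter only through ES2 and BE(2)C. Their calls against A549 and MV3 were thus largely built into the filter, and the shares of all miRNAs are no measure for them. With TMM factors only the miR-708 arms were called between ES2 and MV3, and the calls of miR-28-3p (log2 -0.60) and miR-151a-3p (-1.28) were lost when any library of A549, ES2, MV3 or HepG2 was left out, with values from -0.67 to -0.53 and from -1.34 to -1.22.

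Within the Novogene preparation, miR-28-5p and miR-28-3p were higher in HepG2 than in BE(2)C, by 2.56-fold and 5.37-fold on plain CPM (log2 BE(2)C minus HepG2 -1.31 and -2.42, limma adjusted p = 0.000542 and 3.72e-06), where 8.24% of all tested miRNAs were higher in HepG2. The size depends on the scaling, with log2 differences of -4.23 and -5.42 with TMM factors, where 29.4% of all miRNAs were higher in HepG2, and of -5.21 and -6.42 with quantile normalization. The other 4 members were higher in BE(2)C (74.7% of all miRNAs), with the reversal of both miR-151a arms under TMM factors given above. Across preparations BE(2)C was below A549, ES2 and MV3 in miR-28-5p, miR-28-3p and miR-151a-5p and above them in the other 3 members. The share of all miRNAs called lower in BE(2)C was 22.3% against A549, 26.4% against ES2 and 32.4% against MV3, and the share called higher was 54.4%, 51.1% and 45.6%. On plain CPM HepG2 was below the same lines in 2, 4 and 3 members (55.7%, 48.5% and 58.2% of all miRNAs). These included miR-28-5p and miR-151a-5p each time. HepG2 was above the same lines in miR-151a-3p alone on plain CPM (11.9%, 12.3% and 11.4%). With TMM factors miR-28-3p was also higher in HepG2 than in A549, ES2 and MV3 (log2 of line minus HepG2 -2.40, -2.57 and -2.46). These comparisons share the libraries of BE(2)C or HepG2 and are not independent of each other. Calls of the miR-708 arms between ES2 or BE(2)C and A549, MV3 or HepG2 were largely built into the filter.

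The arms of a hairpin come from the same transcript, so that their ratio asks which strand was read, whatever the level of the hairpin. In the NEXTflex libraries both strands of miR-28 were read in comparable numbers. The 5p share of miR-28 reads was 38.6% and 37.9% in A549, 38.0% and 34.7% in ES2, 44.2% and 43.1% in MV3 and 46.1% in PANC1. In BE(2)C it was 8.03% (95% Wilson interval 6.44% to 9.98%) and 14.7% (12.2% to 17.6%), and in HepG2 5.598% and 5.55%. The highest Novogene library was thus well below the lowest NEXTflex library, and the 3p strand outnumbered the 5p strand 16.9 and 17.01 times in HepG2.

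For miR-151a the shift was far wider. The 5p share was 40.7% and 39.2% in A549, 45.7% and 45.4% in ES2, 43.4% and 40.5% in MV3 and 53.2% in PANC1, where the 5p strand was the more frequent. In BE(2)C it was 0.0599% (95% Wilson interval 0.0519% to 0.0691%) and 0.208% (0.182% to 0.238%). In HepG2 it was 0.0319% (0.0237% to 0.0428%) and 0.0406% (0.0312% to 0.0528%). The 3p to 5p ratio thus went from 0.88 in PANC1 and 1.19 to 1.55 in the other NEXTflex libraries to between 479 and 3138 in the Novogene libraries.

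MiR-708 had enough reads for a ratio only in ES2 and BE(2)C. The 5p share was 64.3% (95% Wilson interval 57.4% to 70.7%) and 71.9% (65.2% to 77.6%) in ES2, and 14.3% (13.7% to 14.9%) and 42.5% (41.5% to 43.5%) in BE(2)C. The 5p strand was thus the more frequent in both ES2 and the less frequent in both BE(2)C libraries, but the gap between the BE(2)C replicates (-2.15 in log2 5p to 3p, replicate 1 minus replicate 2) was nearly as wide as the log2 difference between the lines, 2.61 (SE 1.09, 95% interval -0.34 to 5.56, limma adjusted p = 0.125, 4 libraries). Without BE(2)C replicate 2 this difference was 3.68 and passed the test, and without replicate 1 it was 1.53.

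**Figure D3:**
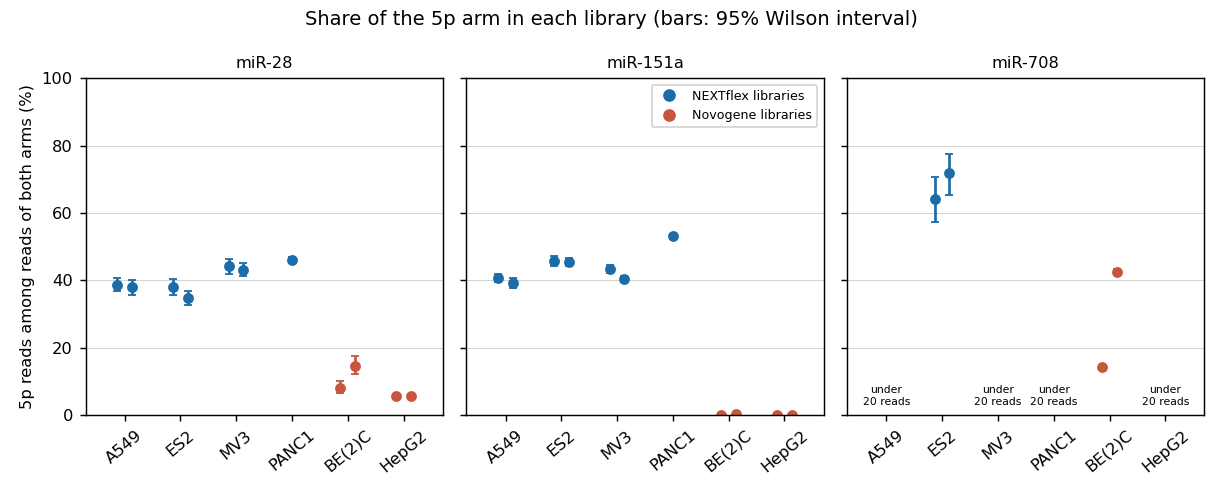
Share of 5p reads among the reads of both arms (percent) in each library, with 95% Wilson intervals that cover counting error; libraries with under 20 reads of a hairpin are left out. MiR-28 and miR-151a lie between 34.7% and 53.2% in the 7 NEXTflex libraries and at 14.7% or below in the 4 Novogene libraries.

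Across the 6 lines the log2 5p to 3p ratio differed for miR-151a (limma F test, adjusted p = 3.25e-06) and miR-28 (adjusted p = 0.000871), against 70.9% of the 103 hairpins with enough reads in every library. All 12 contrasts of these hairpins between a NEXTflex and a Novogene line were called. Of all hairpins tested in a pair, BE(2)C differed from A549 in 46.2%, from ES2 in 44.5% and from MV3 in 39.6%, and HepG2 from the same lines in 55.8%, 53.7% and 49.2%. For miR-151a they lay between 9.21 (A549 minus BE(2)C) and 11.15 (ES2 minus HepG2) with SE of 0.51 to 0.52, among the top 2 of 120 to 173 hairpins in each pair. For miR-28 they lay between 2.21 (ES2 minus BE(2)C) and 3.71 (MV3 minus HepG2) with SE of 0.39 to 0.41, closer to the median absolute difference of 1.75 to 2.22 over all hairpins.

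Within a preparation no such shift was seen. Over the 4 NEXTflex lines the limma F test called 0 of the 2 hairpins (adjusted p = 0.199 for miR-151a and 0.351 for miR-28, unadjusted p = 0.0737 and 0.189), against 14.5% of 124 hairpins. The exact permutation test of the same ratio over 105 assignments of the libraries to lines, which uses the spread of each hairpin alone, gave p = 0.019 for each (2 hairpins tested, adjusted p = 0.019), the smallest it can reach being 0.00952. Neither hairpin was called in the 3 pairs among A549, ES2 and MV3, in which 2.99% (A549 and ES2), 8.09% (A549 and MV3) and 8.82% (ES2 and MV3) of all hairpins were called. Differences among these lines were between -0.44 and 0.21 on the log2 scale, and their 95% intervals reached from -1.54 to 1.41. Between BE(2)C and HepG2 the ratio of miR-28 differed by 1.06 (95% interval 0.11 to 2.01, limma adjusted p = 0.0946) and that of miR-151a by 1.61 (0.41 to 2.81, limma adjusted p = 0.0593), while 23.3% of all hairpins were called in this pair. The call of miR-151a turns on the settings. With 0.5 reads added at every depth, the setting first designed, the difference was 1.63 and passed the test. It also passed with at least 100 reads of both arms (1.61). Without BE(2)C replicate 1 the difference was 2.51. The BE(2)C replicates differed by -0.97 for miR-28 and -1.80 for miR-151a (replicate 1 minus replicate 2), and 38.6% of 272 hairpins differed by more than 1 in this line, against 15.4% to 36.1% in the other replicated lines.

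Over the 103 hairpins the ratio differed between the sets of lines in both directions. The median difference of the NEXTflex minus the Novogene line means was -0.089 and the median size of the difference 1.58. In 20 hairpins (19.4%), miR-28 and miR-151a among them, the ratio was higher in each NEXTflex than in each Novogene library, and in 17 (16.5%) lower. MiR-151a had the highest difference of all 103, 10.3, followed by 5.71 for miR-195, a hairpin named after its value was seen. MiR-28 ranked 15 with 3.02. For the shift of miR-151a, too, line and preparation cannot be told apart.

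**Figure D4:**
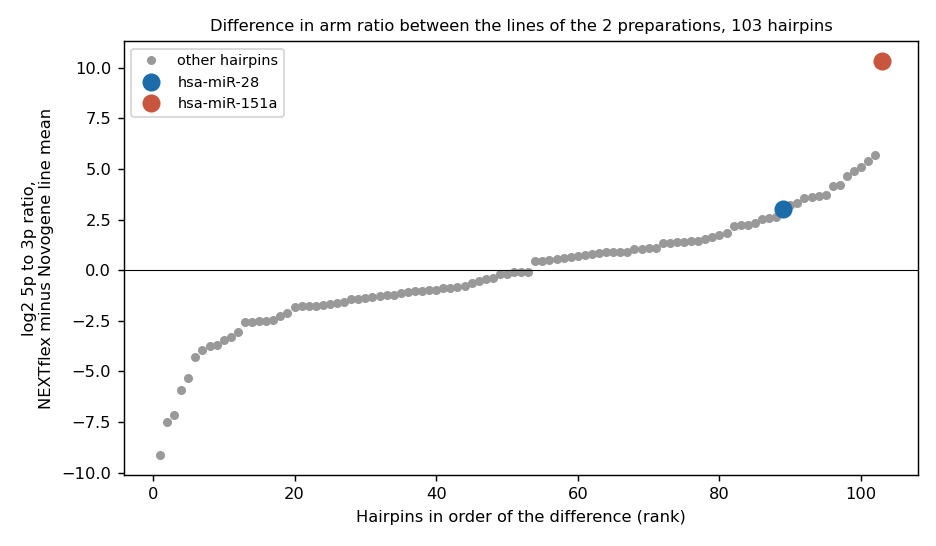
Difference in log2 5p to 3p ratio between the mean of the 4 NEXTflex lines and the mean of the 2 Novogene lines, for 103 hairpins in order of that difference. MiR-151a (10.3) stands above all other hairpins and miR-28 (3.02) lies within their upper range.

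Few reads were counted for the related miRNAs miR-151b and miR-3139. MiR-151b is a separate locus (MIR151B, chromosome 14, 100109419 to 100109514) whose mature sequence is close to miR-151a-5p. It had 8 to 89 reads in the NEXTflex libraries, 13 and 15 with BE(2)C and 1 in each HepG2 library. That is 0.303% to 0.765% of the summed reads of miR-151a-5p and miR-151b in the NEXTflex libraries, while it was 6.5% and 6.61% for BE(2)C, and for HepG2 2.22% and 1.79%. Adding these reads to miR-151a-5p changed none of the calls on the members' levels or arm ratios. How reads that match both miRNAs were assigned is not given, so that reads left out of the counts would not show here. MiR-3139, with the seed of miR-708-5p shown above, had 12 reads and 1 read in BE(2)C. It had 0 and 2 reads in HepG2 and 0 in all NEXTflex libraries. Of the summed reads of miR-3139 and miR-708-5p in BE(2)C, 1705 and 3879, nearly all came from miR-708-5p. Members without a RefSeq sequence here, miR-28-5p among them, were not compared by seed, so that this sum need not hold all reads with that seed.

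Other intronic miRNAs of protein-coding hosts were counted beside the members. Of 22 such miRNAs, 21 were tested, and 21 differed across the 6 lines and 19 across the 4 NEXTflex lines, shares near those of all miRNAs given above. The most abundant were miR-139-5p, which was read at 26077 CPM in BE(2)C and at 4.61 to 23.8 CPM elsewhere, miR-25-3p (1399 CPM in HepG2 to 10013 CPM in BE(2)C), miR-26b-5p (498 CPM in HepG2 to 5795 CPM in PANC1) and miR-148b-3p (789 CPM in A549 to 3385 CPM in BE(2)C). Between BE(2)C and HepG2, 18 of the 21 were higher in BE(2)C and 3 in HepG2 on plain CPM, against 74.7% and 8.24% of all tested miRNAs, whose median log2 difference was 2.79. With TMM factors, which bring that median to 0.31, 5 were higher in BE(2)C and 10 in HepG2, against 40.3% and 29.4%.

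The pattern over the 6 line means of log2(CPM + 1) was compared with that of all other tested miRNAs as a description; the 6 points share their libraries, depth and preparation. For miR-28-3p the closest were miR-183-5p (Pearson r = 0.994), miR-182-5p (0.976) and miR-146a-5p (0.935). Like miR-28-3p on plain CPM, miR-183-5p was lowest in BE(2)C with 29.6 CPM and highest in PANC1 with 4713 CPM. With TMM factors miR-28-3p was higher in HepG2 (mean 2784 CPM) than in PANC1 (590 CPM), so that this likeness rests on plain CPM. For miR-151a-3p they were miR-378i (0.978), miR-659-5p (0.968) and miR-548o-3p (0.964), all at or below 5.03 CPM in the NEXTflex lines and at 18.1 to 203 CPM in the Novogene lines. For miR-708-3p they were miR-328-3p (0.958), miR-33a-3p (0.955) and miR-592 (0.951), of which miR-592 was read only in ES2 (7.53 CPM), BE(2)C (10.5 CPM) and, at 0.124 CPM, HepG2.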

How the data were processed

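Small RNA-seq of 11 libraries was used. The submitters' processing notes name the build hg38 and cutadapt 1.14, Bowtie2 2.3.2, SAMtools 1.5, featureCounts 1.5.3 and edgeR 3.30.3, without their settings for these reads. The authors deposited CPM for PANC1 and, for each other line, a scaled signal (CPM divided by factors set within that table), whose columns summed to between 941264 and 1062401. Values above 0 came out as whole reads in 100% of cases (tolerance 0.02 reads), so that reads were recovered and each library was rescaled to the same total, as CPM. Each table held 2813 entries for 2588 mature miRNAs, and how reads that match several related miRNAs were assigned is not given in the sources used here. Libraries held 1173902 to 12137452 miRNA reads. Reads are PCR products without molecular identifiers, so that Wilson intervals and detection limits hold counting error alone.

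A miRNA that averaged 10 CPM or more in any line was tested on log2(CPM + 1), a scale that understates changes of low values, with limma 3.58.1 in R 4.3.3 (moderated F tests and two-sided contrasts, eBayes with trend, Benjamini-Hochberg adjustment over all tested miRNAs, threshold 0.05). PANC1, without replicate, entered no pair. Arm ratios were tested likewise over hairpins with at least 20 reads of both arms in each library of the fit, and between pairs in the libraries with that many reads. The pseudocount was 0.5 reads on average, scaled with library depth. The design had foreseen the same 0.5 reads at every depth, which gave false calls on simulated data, and it was kept as an alternative. The fits were tested on simulated data. Replicates were biological replicates of a culture, and p-values measure the spread between them. Alternatives were TMM factors (edgeR 4.0.16), quantile normalization, the deposited scale, other pseudocounts and filters, edgeR and DESeq2 1.42.0 on the recovered reads, a replicate block and each library left out. The edgeR quasi-likelihood F test on the reads called 544 of 546 miRNAs over the 6 lines and 414 of 453 over the NEXTflex lines.

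The members, the list of intronic miRNAs and the tests were chosen with earlier results of these data known. Named were the members, miR-151b and miR-3139, marker miRNAs, the 3 miRNAs most like the more abundant arm of each hairpin, and the 4 most abundant of the intronic list. Mature sequences were matched by name to a RefSeq table, and host genes by GENCODE v44.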

Additional observations from a re-analysis of the deposited data

Results flagged for a closer look

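The 5p to 3p ratio differed between lines beyond the replicate spread for miR-151a (limma F test over 6 lines, adjusted p = 3.25e-06) and for miR-28 (adjusted p = 0.000871), which a test of the difference itself marked. Every limma pair contrast of a NEXTflex with a Novogene line was marked for both hairpins as well. Over all hairpins, the F test called 70.9% of 103. Between 39.6% (MV3 and BE(2)C) and 55.8% (A549 and HepG2) of the hairpins tested were called in these pairs. In log2 5p to 3p ratio, miR-28 differed by 2.33 (A549 minus BE(2)C), 3.39 (A549 minus HepG2), 2.21 (ES2 minus BE(2)C), 3.27 (ES2 minus HepG2), 2.65 (MV3 minus BE(2)C) and 3.71 (MV3 minus HepG2). For miR-151a the differences were 9.21 (A549 minus BE(2)C), 10.8 (A549 minus HepG2), 9.54 (ES2 minus BE(2)C), 11.15 (ES2 minus HepG2), 9.33 (MV3 minus BE(2)C) and 10.9 (MV3 minus HepG2). The line and its preparation cannot be told apart in these contrasts, which share the 4 Novogene libraries. No group of libraries was large enough for a check of single deviating libraries.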

How the results depend on the processing

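Of 1134 recomputed values of the 54 single contrasts of members, 1075 kept their direction and side of the threshold, 40 lost the call, 2 gained it and 17 changed sign; the cause was not tested. Of these values, 594 came from fits with a library left out, mostly a library of a line outside the contrast, which leaves the estimate as it was. The number kept thus says little about scaling. With TMM factors 39 of the 54 contrasts stayed the same, and with quantile normalization 38. Sign changes came mainly from scaling. With TMM factors, miR-28-3p became 0.18 (A549 minus ES2), 0.064 (A549 minus MV3), -2.40 (A549 minus HepG2), -2.57 (ES2 minus HepG2) and -2.46 (MV3 minus HepG2) on the log2 scale, miR-28-5p 0.29 (A549 minus ES2), and BE(2)C minus HepG2 became -1.85 for miR-151a-3p and -0.21 for miR-151a-5p. With quantile normalization the values were 0.30 (miR-28-3p), 0.47 (miR-28-5p) and 0.098 (miR-151a-3p) for A549 minus ES2, -2.14, -2.44 and -2.07 for miR-28-3p in A549, ES2 and MV3 minus HepG2, and -1.80 (miR-151a-3p) and -1.23 (miR-151a-5p) for BE(2)C minus HepG2. Without ES2 replicate 1, A549 minus ES2 of miR-28-5p became 0.012 (lowest -0.0548, without ES2 replicate 2). Members called between A549 and MV3 fell from 4 to 1 under either scaling, and between ES2 and MV3 from 6 to 2 (TMM) and 3 (quantile). No share over all miRNAs under these scalings stands beside these counts. The calls of miR-28-3p and miR-151a-3p between ES2 and MV3 were lost when any of the A549, ES2, MV3 or HepG2 libraries was left out. With libraries left out in turn, where a remaining library was assumed to vary like the other lines, members called ranged from 2 to 4 (A549 and ES2), 4 to 6 (ES2 and MV3) and 5 to 6 (BE(2)C and HepG2). For the arm ratio of miR-151a, BE(2)C minus HepG2 passed the test with 1 read added (1.58), 0.5 read at every depth, the setting first designed and replaced by the depth-scaled one (1.63), and at least 100 reads (1.61), and ranged from 0.709 to 2.51 with libraries left out. The ranges were 0.573 to 1.55 for miR-28 in this pair and 1.53 to 3.68 for miR-708, ES2 minus BE(2)C, and the highest value of each passed the test, without BE(2)C replicate 1 for miR-28 and miR-151a and without its replicate 2 for miR-708. By the exact permutation test, which was run on miR-28 and miR-151a only, 2 rather than 0 hairpins differed over the NEXTflex lines. No share over all hairpins stands beside this count. Replicate numbers did not pair the libraries: correlations of replicate differences between lines lay between -0.0531 and 0.109 over 10 pairs of lines. A replicate block changed no call, with 6 members still called over the 6 lines and 2 hairpins by arm ratio. Both miR-708 arms had line means of at most 1.33 CPM in A549, MV3, PANC1 and HepG2, and gave no order among A549, MV3 and HepG2.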
